A study of Homo sapiens with 30 samples.

Results

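The genes of the cytosolic ribosomal proteins were followed across RNA-Seq libraries of SH-EP cells and of 4 SH-EP lines that express MYCN. Members were chosen by gene symbol alone (RPL, RPLP or RPS with a number and, for some, a suffix, plus RPSA). The rule took 85 of 26228 listed genes, 32 of the small subunit and 53 of the large subunit, and 82 of the 85 passed the filter of a mean of at least 1 FPKM (fragments per kilobase of transcript, scaled to the reads mapped in the library) over the 30 libraries, as did 11575 genes in all. SH-EP is an established human neuroblastoma (NB) line of mesenchymal character. The other lines were made from it by stable retroviral transduction of WT MYCN or of the mutants T58A, S62A and T58A S62A (the double mutant), each from an exogenous promoter. T58 and S62 are phosphorylation sites that govern how long the MYCN protein lasts. Each line was given DMSO or 1 μM CYC065, an inhibitor of the kinases CDK9 and CDK2, for 6 hours, with 3 libraries per line and treatment. ERCC spike-ins, synthetic RNAs, were added in proportion to cell number. Nothing in the labels says that the 3 libraries came from separate cultures, so p-values measure the spread between these libraries, which may be technical.

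The labels held against the data. MYCN was listed at 0 FPKM in the 6 SH-EP libraries and was at 12.9 ± 1.09 FPKM in WT, 8.52 ± 1.29 in T58A, 5.72 ± 0.778 in S62A and 13.5 ± 3.83 for the double mutant in DMSO (mean ± SD, n = 3 each). The mesenchymal genes VIM and COL1A1 were at 1305 FPKM or more and 156 FPKM or more in every library. Their means in DMSO, and those of FN1, PRRX1 and SNAI2, also mesenchymal, were lower in each MYCN line than in SH-EP. In SH-EP and then over the MYCN lines, mean VIM was at 2496 and 1335 to 1766 FPKM. COL1A1 was at 638 and 174 to 216, and FN1 at 303 and 28.3 to 52.1. PRRX1 was at 111 and 37.7 to 88.9, and SNAI2 at 21.3 and 6.11 to 12.03. The paper also reports lower mesenchymal gene expression in the MYCN lines. The adrenergic factor PHOX2A was listed at 0 in all 30 libraries. PTPRC, EPCAM, PECAM1 and ALB, which mark leukocytes, epithelium, endothelium and hepatocytes, did not exceed 0.327 FPKM. Read depth is unknown from FPKM. Each SH-EP library shares its index sequence with a MYCN-line library, so library pool and the contrast of SH-EP with the MYCN lines cannot be told apart. The factor that brings a library to the common spike-in level was 1.64 in library 1 of WT in DMSO, against 1.13 and 1.28 in the other two, and 1.20 in library 2 of T58A in DMSO, against 1.91 and 1.94. Where leaving out 1 library moved a count of members by over 1.5 times, the count without it is given. The share of all tested genes in such a refit is not given, so these counts speak of stability alone.

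The ribosome is built from a small and a large subunit, and every cell makes the proteins of both in near-equal numbers from genes scattered over the genome. Most of these genes start transcription at a C followed by a run of pyrimidines, the terminal oligopyrimidine (TOP) tract, through which growth signals control translation of the mRNA. MYC family proteins are known to raise ribosome production, including transcription by RNA polymerase I and the genes of nucleolar assembly factors. Some members have a related gene elsewhere in the genome, called a copy here. By symbol, RPL7L1, RPL22L1, RPL26L1, RPL36AL and RPS27L are copies of RPL7, RPL22, RPL26, RPL36A and RPS27. How alike the proteins of each pair are, and whether each copy takes its partner's place in the ribosome, was not examined. Most members also have processed pseudogenes, and how reads that match several copies were assigned is not given in the sources used here, so levels of members and their copies are uncertain.

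The sequence at the RNA start was read for the members on which the results below turn. RefSeq promoter sequences of GRCh38.p14, with 250 bases before and 50 from the annotated start, were matched to 68 of the 85 members by symbol. The 30 bases around the start are shown for the 3 members with the largest rise in the MYCN lines on FPKM as deposited (RPS24, RPL36AL and RPL38). They are also shown for RPL7L1, RPL13A, RPL36AL and RPL26L1, and for other copies and RPL36A. Those 4 were lower with CYC065 in every line at an adjusted p under 0.05 (limma) after scaling to spike-ins. The first 15 bases lie before the annotated start, and capitals mark the longest run of C and T that begins with a C within 5 bases of it.
RPS24 (chr10:78033848-78033877, plus strand): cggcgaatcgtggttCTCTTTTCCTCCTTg
RPL38 (chr17:74203663-74203692, plus strand): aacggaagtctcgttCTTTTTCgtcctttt
RPL36A (chrX:101390996-101391025, plus strand): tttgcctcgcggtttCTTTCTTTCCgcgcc
RPL36AL (chr14:49620612-49620641, minus strand): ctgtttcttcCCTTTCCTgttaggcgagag
RPL13A (chr19:49487593-49487622, plus strand): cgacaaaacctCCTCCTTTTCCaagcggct
RPL22L1 (chr3:170870181-170870210, minus strand): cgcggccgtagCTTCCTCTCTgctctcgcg
RPL7L1 (chr6:42879601-42879630, plus strand): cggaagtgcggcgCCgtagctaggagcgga
RPL26L1 (chr5:172958714-172958743, plus strand): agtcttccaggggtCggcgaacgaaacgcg
RPS27L (chr15:63157463-63157492, minus strand): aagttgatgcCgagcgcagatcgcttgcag

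The run was 14 bases long in RPS24, 11 in RPL13A, 10 in RPL22L1 and RPL36A, 8 in RPL36AL and 7 in RPL38, but 2 in RPL7L1 and 1 in RPL26L1 and RPS27L. Among the 68 members, 52 (76.5%) had a run of at least 5 bases and 42 (61.8%) one of at least 8. Among 15843 protein-coding promoters in the same table, the shares were 22.1% and 5.91%. The E-box CACGTG, which reads the same on both strands and is bound by MYC family proteins, was in 4 of the 68 members' 300-base sequences (5.88%), RPL7L1 and RPL13A included, and in 8.88% of all. CCGGAAG or its complement CTTCCGG, a motif of ETS factors, was in 23 members (33.8%) and in 14.2% of all. TATAAA within the 50 bases before the start was in 4 members (5.88%) and in 3.89% of all, on the strand of the gene. These are matches of letters to annotated starts, and no binding was measured here.

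**Figure D1:**
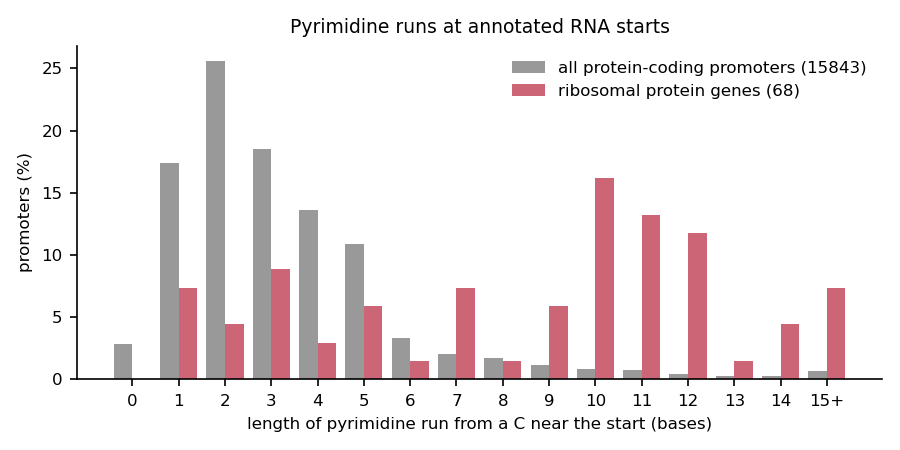
Length in bases (x axis) of the pyrimidine run that begins with a C within 5 bases of the annotated start, as the percentage of promoters (y axis) of the 68 matched ribosomal protein genes (red) and of 15843 protein-coding promoters (grey). The members' median is 10 bases and the median of all is 3.

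Ribosomal protein mRNAs were among the most abundant in these cells. Of the 85 members, 78 had a mean of at least 100 FPKM and 53 of at least 1000 FPKM, and they made up 31 of the 50 and 58 of the 100 genes with the highest means. The median of the tested members' means was 1313 FPKM, and that of all tested genes 10.9 FPKM. RPS27, a zinc finger protein of the small subunit, was highest at a mean of 4324 FPKM. The tissue-restricted copies RPL3L, RPL10L and RPL39L, known from muscle and testis, did not pass the filter. Levels within a group agreed closely for most members, with a median coefficient of variation of 5.83%, but that of RPL41, the shortest ribosomal protein, was 45.0% and that of RPL21 25.8%.

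The share of all FPKM held by the members is a measure within a library that needs no scaling between libraries. In SH-EP with DMSO, the 3 libraries gave 15.5%, 15.5% and 15.6%. Shares in DMSO were 19.0%, 18.0% and 17.2% in WT, 17.2%, 17.8% and 16.8% in T58A, 16.9%, 17.8% and 17.5% in S62A and 18.0%, 18.2% and 18.4% for the double mutant. Every MYCN-line library in DMSO was above every SH-EP library. With CYC065, the shares were 18.9% to 19.2% in SH-EP, 18.4% to 20.1% in WT, 20.5% to 21.8% in T58A, 19.4% to 21.6% in S62A and 19.9% to 20.7% for the double mutant. They lay above the DMSO libraries of the same line in all lines but WT, where the ranges overlapped. A single gene, listed as the microRNA MIR663A, moved with treatment and enters the denominator. It held at most 0.164% of summed FPKM in a DMSO library and 1.90% to 13.0% in a CYC065 library. Without MIR663A, an alternative chosen after seeing the data, the CYC065 libraries of WT were at 20.4% to 21.2%, above their DMSO libraries at 17.3% to 19.1%.

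**Figure D2:**
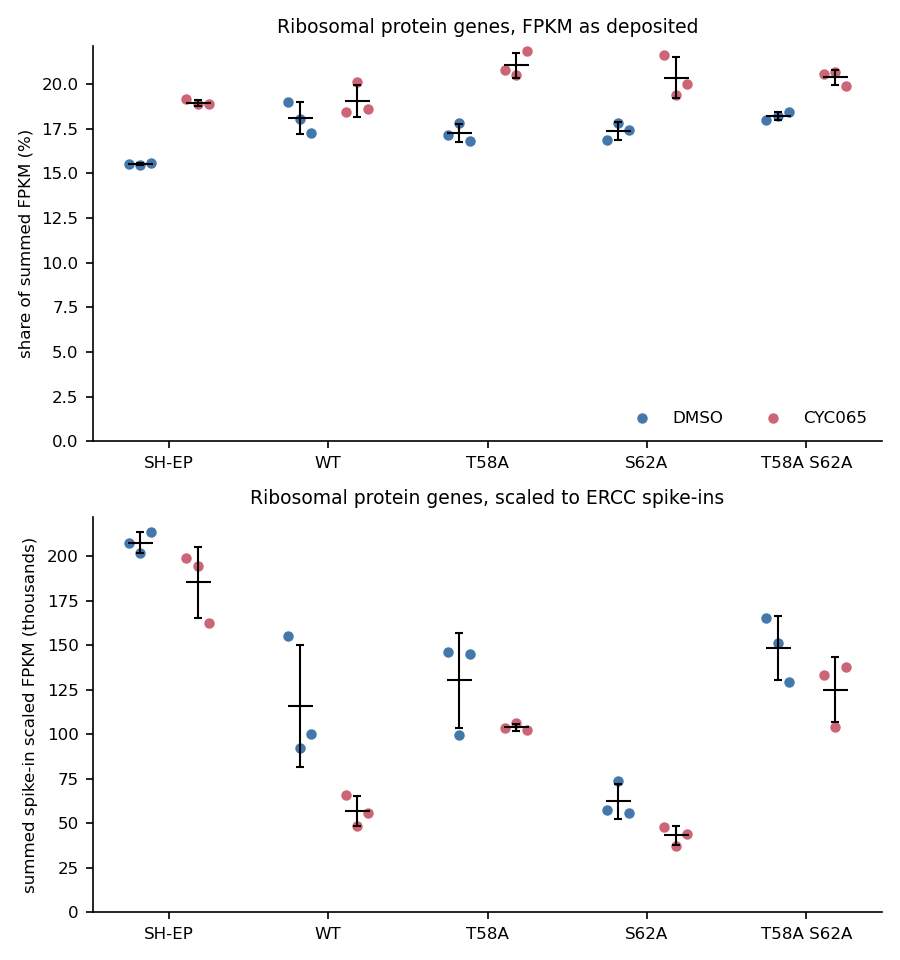
Upper plot, percentage of summed FPKM as deposited held by the 85 ribosomal protein genes, for each library (points), with mean and SD of 3 (bars). Lower plot, their summed FPKM after scaling to spike-ins, in units of 1000 FPKM. The share rose from 15.5% in SH-EP with DMSO to 16.8% or more in the MYCN lines, whereas the scaled sum was highest in SH-EP.

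The first comparison asked how ribosomal protein mRNAs differ between MYCN lines and SH-EP in DMSO. On FPKM as deposited, 64 of 82 tested members were higher in WT than in SH-EP, 45 in T58A, 42 in S62A and 57 for the double mutant (limma over all tested genes, Benjamini-Hochberg adjusted p under 0.05), whereas on the spike-in scale none was higher. Genes called higher made up 31.6% (WT), 30.9% (T58A), 31.0% (S62A) and 31.2% (double mutant) of the 11575 tested, and members 78.0%, 54.9%, 51.2% and 69.5% of the 82. The members' median log2 change was 0.38 in WT, 0.26 in T58A, 0.20 in S62A and 0.34 for the double mutant, beside medians of 0.07, 0.05, 0.06 and 0.06 over all tested genes. Without library 1 of WT in DMSO the count in WT was 53, and without library 2 of T58A in DMSO that in T58A was 40. Few members were lower: none in WT, RPS21 and RPS18 in T58A, RPS27 in S62A and RPL22L1 for the double mutant, when genes called lower made up 22.6%, 23.3%, 23.4% and 24.1% of all. The 4 comparisons share the SH-EP libraries. In the mean over the lines, 61 members were higher and none lower, against 34.6% and 26.3% of all tested genes. In all 4 lines, 32 members were higher, 39.0% of the 82, against 19.2% of all tested genes.

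The rise was relative to other mRNAs. After scaling to spike-ins, the median of all tested genes was lower than in SH-EP by 1.16 in WT, 0.88 in T58A, 1.86 in S62A and 0.75 for the double mutant on the log2 scale. On that scale members were lower too: 79 in WT, 64 in T58A, 82 in S62A and 48 for the double mutant, with none higher, when 88.5%, 77.6%, 95.0% and 69.7% of all tested genes were lower and 0.994%, 1.87%, 0.389% and 2.27% higher. Their medians, at -0.87, -0.69, -1.75 and -0.49, stayed above those of all genes, and 76, 61, 56 and 69 of the 82 members lay above the median of all genes. Spike-ins held a mean of 2.12% of FPKM summed over genes and spike-ins in SH-EP with DMSO, and 8.90% in S62A with DMSO. Less RNA per cell and error in cell counts or in the spike-ins added cannot be told apart here. The changes between lines given below are on FPKM as deposited, and the mean change over lines of each member named with one below was negative on the spike-in scale.

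By subunit, 26 of 32 small subunit genes and 38 of 50 tested large subunit genes were higher in WT than in SH-EP as deposited. In T58A, 14 of 32 and 31 of 50 were higher, in S62A 14 and 28, and in the double mutant 23 and 34. Genes called higher made up 31.6% (WT), 30.9% (T58A), 31.0% (S62A) and 31.2% (double mutant) of all tested. Median log2 changes of small and large subunit genes were 0.37 and 0.41 in WT, 0.15 and 0.31 in T58A, 0.15 and 0.25 in S62A, and 0.37 and 0.32 in the double mutant. The summed FPKM of the small subunit genes, divided by that of the large subunit genes, was 0.82 to 0.83 in the SH-EP libraries with DMSO and 0.73 to 0.76 in those of T58A. The ratio was 0.78 to 0.81 in WT, 0.76 to 0.77 in S62A and 0.77 to 0.82 for the double mutant. Being a sum over members, it was given no test.

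RPS24, a small subunit protein that is mutated in Diamond-Blackfan anemia, had the largest mean rise among the 32 members called in all 4 lines. It was at 868, 916 and 919 FPKM in SH-EP, at 1426 to 1639 in WT, 1413 to 1606 in T58A, 1479 to 1915 in S62A and 1144 to 1639 for the double mutant. No MYCN-line library reached down to the SH-EP range. Averaged over the lines, its log2 change was 0.74 ± 0.07 (SE, adjusted p = 4.13e-09). RPL38, a large subunit protein known for its part in translating Hox mRNAs, was at 1510, 1588 and 1562 FPKM in SH-EP and at 1951 to 2665 FPKM over the 12 MYCN-line libraries, again with no overlap, a mean change of 0.59 ± 0.05 (adjusted p = 1.14e-10).

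RPL5 and RPL11 join the 5S rRNA in a particle that, when free, binds MDM2 and stabilizes p53. RPL5 was at 649, 685 and 702 FPKM in SH-EP and at 1038 to 1092 in WT, 855 to 933 in T58A, 929 to 1007 in S62A and 788 to 877 for the double mutant. RPL11 was at 1105, 1166 and 1179 FPKM in SH-EP and at 1289 to 1667 FPKM in the 12 MYCN-line libraries. Both were called in each line, with mean log2 changes of 0.46 ± 0.03 for RPL5 (adjusted p = 4.26e-11) and 0.30 ± 0.04 for RPL11 (adjusted p = 1.5e-07). In contrast, the members of the stalk, which recruits elongation factors, differed among themselves. RPLP2 was called in each line, with a mean change of 0.47 ± 0.06 (adjusted p = 1.34e-07), whereas RPLP0 had -0.03 ± 0.07 (adjusted p = 0.751) and RPLP1 0.10 ± 0.06 (adjusted p = 0.111). Whether RPLP2 differed from RPLP0 was not tested.

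Of the remaining members in fixed roles, RPS27A, which is translated as a fusion with ubiquitin, had a mean log2 change of 0.39 and was called in each line. RPSA, which also serves as a laminin receptor, had 0.06 and was called in none. RPS4X, an X-linked gene, had 0.12 and was called in WT and S62A. RPS6, the substrate of S6 kinase, had 0.10 and was called in the same lines, at 0.28 in WT and 0.19 in S62A. Of the partners of copies, RPL3, RPL26, RPL36A and RPL39 were called in each line, at mean changes of 0.32, 0.55, 0.42 and 0.57. RPL7 was called in WT, T58A and S62A with a mean of 0.39, and RPL10 and RPL22 in none, at 0.07 and 0.14.

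Copies and their partners can be compared within a library, where scaling has no part. RPS27L, a p53 target that copies RPS27, stood out in S62A. It was at 78.1, 72.6 and 85.1 FPKM in SH-EP and at 120, 123 and 139 FPKM in S62A, and RPS27 was at 3088, 3014 and 3192 FPKM in SH-EP and at 2085, 2356 and 2362 FPKM in S62A. On FPKM as deposited, the ranges did not overlap for either gene and moved in opposite directions. The log2 change was 0.69 ± 0.07 for RPS27L (limma, adjusted p = 4.27e-09) and -0.45 ± 0.10 for RPS27 (adjusted p = 0.000448). On the spike-in scale both genes were called lower in S62A than in SH-EP, as were all 82 tested members and 95.0% of all tested genes. As a share of RPS27 FPKM, RPS27L was at 2.41% to 2.67% in SH-EP and at 5.21% to 5.89% in S62A. The share was 3.15% to 3.67% in T58A S62A, 2.28% to 2.70% in WT and 2.33% to 3.27% in T58A, so both lines with the S62A change were above SH-EP and those of WT and T58A overlapped with it.

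RPL22L1, the copy of RPL22, was high in WT alone among the DMSO groups on FPKM as deposited. It was at 55.1, 55.4 and 60.9 FPKM in SH-EP, at 92.9, 88.3 and 87.9 in WT, 51.4, 59.3 and 43.8 in T58A, 53.7, 57.1 and 62.8 in S62A and 44.2, 55.5 and 46.8 for the double mutant. The WT libraries overlapped with none of the others. Its log2 change against SH-EP was 0.65 ± 0.08 in WT (limma, adjusted p = 5.06e-07). The mutants lay below WT, T58A by -0.81 ± 0.08 (adjusted p = 1.97e-07), S62A by -0.63 ± 0.08 (adjusted p = 4.95e-06) and the double mutant by -0.88 ± 0.08 (adjusted p = 3.15e-08). On the spike-in scale RPL22L1 was called lower than in SH-EP in all 4 MYCN lines, WT included. It was 1 of 48 such members (58.5%), against 67.2% of all tested genes. On that scale it was not called lower in T58A than in WT. RPL36AL, the autosomal copy of the X-linked RPL36A, was higher than SH-EP in each line. It was at 186, 207 and 208 FPKM in SH-EP and at 265 to 377 FPKM in the MYCN lines, with a mean change of 0.63 ± 0.05 (adjusted p = 3.49e-11). RPL7L1 had a mean change of 0.49 ± 0.07 (adjusted p = 9.47e-07) and RPL26L1 one of 0.31 ± 0.11 (adjusted p = 0.0183), which was 0.22 (adjusted p = 0.148) without library 1 of SH-EP in DMSO.

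**Figure D3:**
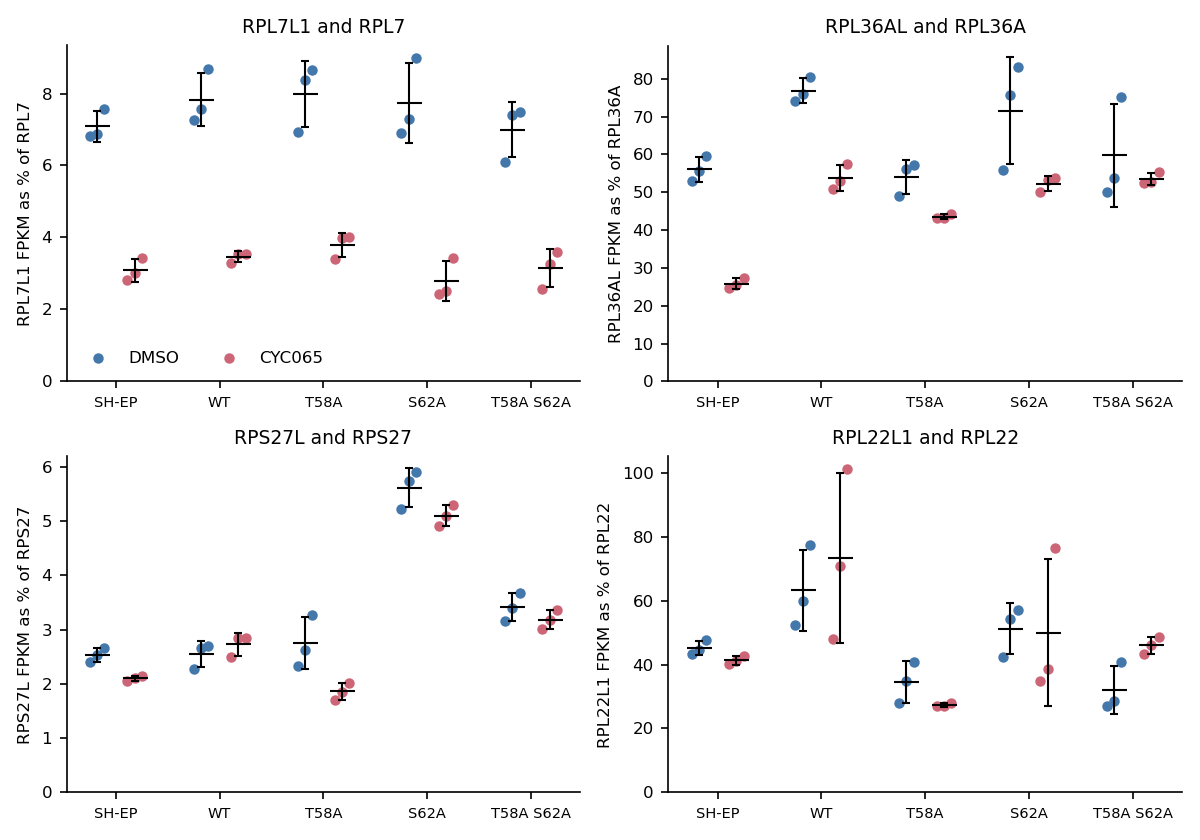
FPKM of 4 copies as a percentage of the FPKM of their partner in the same library, for each library of the 5 lines (points) in DMSO (blue) and CYC065 (red), with mean and SD of 3 (bars). RPL7L1 fell from 6.11% or more of RPL7 in every DMSO library to 4.0% or less in every CYC065 library, and RPS27L stood at 5.21% or more of RPS27 in S62A with DMSO.

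The mutants were then compared with WT in DMSO, to order the MYCN lines. Of the 82 members, 23 were lower in T58A than in WT, 28 in S62A and 16 for the double mutant, or 28.0%, 34.1% and 19.5%, when 13.0%, 14.0% and 14.2% of all tested genes were lower. Members called higher were none in T58A, RPS27L in S62A and RPS27L and RPL37 for the double mutant, against 10.7%, 10.1% and 9.43% of all tested genes. The members' median log2 changes were -0.15, -0.18 and -0.03, beside -0.02 in each for all tested genes. RPS21, a small subunit protein that was named after its values were seen, showed the T58A line apart from the rest. It was at 1986, 1666 and 1515 FPKM in WT, at 914, 1067 and 996 in T58A, at 1364 to 1576 in S62A and at 1387 to 1454 for the double mutant, and the SH-EP libraries at 1113 to 1146 FPKM lay above those of T58A and below the rest. Its change against WT was -0.79 ± 0.07 in T58A (adjusted p = 1.75e-08). RPS6 was lower than WT by -0.39 ± 0.06 in T58A (adjusted p = 9.66e-05).

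Library 1 of WT in DMSO, with the highest members' share, weighed on these counts. Without it, 13 members were lower in T58A, 8 in S62A and 7 for the double mutant. With only the groups compared in the fit, the counts were 5, 2 and 1. The S62A count was also 43 without library 3 of WT and 17 without library 1 of S62A, and that of T58A S62A was 10 without its library 1. Shares of all tested genes in these refits are not given here. After scaling to spike-ins, 0 members were lower and 0 higher in T58A, 79 lower in S62A and 1 lower and 11 higher for the double mutant, when the medians of all tested genes were 0.28, -0.71 and 0.39. Of all tested genes, 0.458% were lower and 8.13% higher in T58A on that scale, 74.8% lower in S62A, and 1.02% lower and 23.2% higher in the double mutant. MYCN itself was lowest in S62A. Its part in the order of the lines was not tested.

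The second comparison asked what CYC065 does to these mRNAs in each line. On the spike-in scale, most mRNAs fell and ribosomal protein mRNAs fell by less. The median log2 change of all tested genes was -1.06 in SH-EP, -1.57 in WT, -1.08 in T58A, -1.35 in S62A and -0.97 for the double mutant. That of the members was -0.17, -1.01, -0.32, -0.52 and -0.23 in the same order. Of the 82 members, 80, 81, 80, 81 and 80 lay above the median of all tested genes. For the mean over the lines, the members' median lay 0.74 above that of all tested genes, and 0.37 above it when genes of low level were not filtered out. Those below the median of all tested genes were RPL7L1 in every line, RPL36AL in SH-EP, and RPL13A in T58A and T58A S62A.

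The members called lower numbered 4 in SH-EP, 80 in WT, 18 in T58A, 69 in S62A and 10 for the double mutant, and none was called higher, nor at an unadjusted p under 0.05. Genes called lower made up 75.7%, 93.7%, 84.2%, 90.2% and 76.3% of all tested, genes called higher 0.907%, 0.769%, 1.25%, 0.968% and 1.85%, and members called lower 4.88%, 97.6%, 22.0%, 84.1% and 12.2%. In WT, RPL41 was among the members not called. Members changed with little spread among themselves: the middle 50% of them spanned 0.10 to 0.22 on the log2 scale, depending on the line, and the middle 50% of all tested genes 1.12 to 1.42. The members' summed spike-in scaled FPKM in SH-EP was 202043 to 213561 with DMSO and 162696 to 198821 with CYC065. In WT it was 92590 to 155413 and 48737 to 65711, and in S62A 55593 to 73849 and 37556 to 48230. The treatments overlapped in T58A and in T58A S62A, and not in the other lines.

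The counts in the mutant lines turned on single libraries and on the fit. Shares of all tested genes in the refits are not given here, so whether other genes gained or lost calls alike cannot be read from them. With only the groups compared in the fit, 13 members were lower in SH-EP, 6 in T58A and 5 in the double mutant. In T58A, 61 members were lower without library 2 of DMSO, the one that stands apart in its spike-in factor, and 6 to 11 without any of the others. In S62A, 34 were lower without library 2 of DMSO or without library 2 of CYC065. In T58A S62A, the count was 24 without library 3 of DMSO and 5 or 6 without library 1 or 2 of DMSO or library 2 of CYC065. Spread between spike-in factors enters every member's change in a line alike, so the members called in a line are not independent of each other.

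On FPKM as deposited, which gives each mRNA relative to the rest of its library, the direction was the opposite. Members called higher with CYC065 numbered 80 in SH-EP, 76 in WT, 80 in T58A, 81 in S62A and 76 for the double mutant, against 42.7%, 37.0%, 38.1%, 38.8% and 38.6% of all tested genes. Their medians were 1.08, 0.68, 0.87, 0.98 and 0.85, beside medians of 0.15, 0.06, 0.07, 0.07 and 0.07 over all tested genes. In all 5 lines, 73 members were higher as deposited (89.0%, against 28.5% of all tested genes). RPL7L1 was the member lower in every line on both scales.

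**Figure D4:**
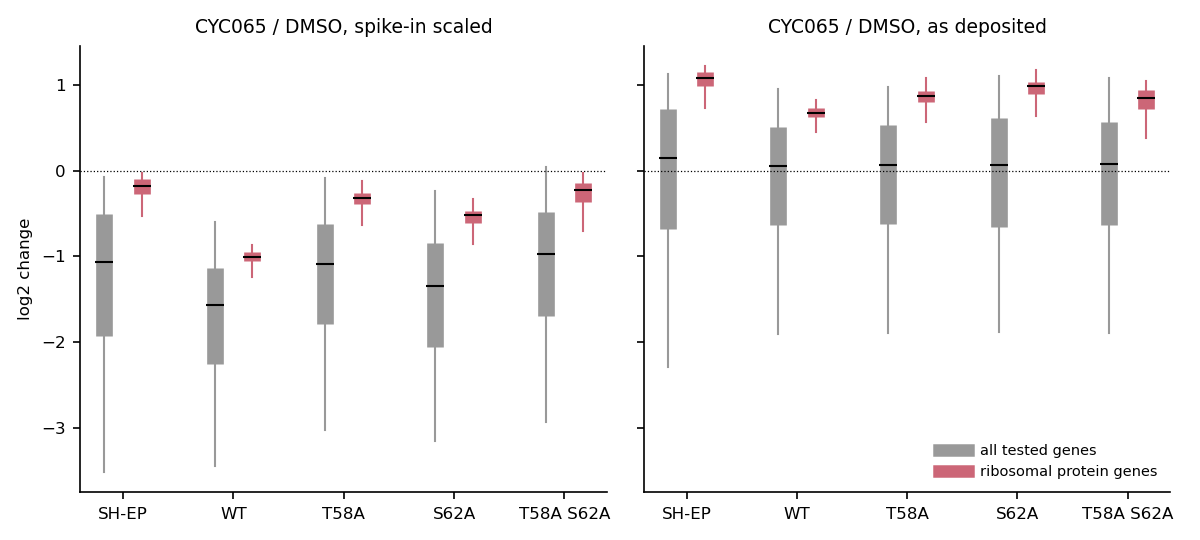
Log2 change with CYC065 against DMSO in each line, for all 11575 tested genes (grey) and the 82 ribosomal protein genes (red), on spike-in scaled FPKM (left) and on FPKM as deposited (right). Boxes span the middle 50% of genes, thin lines the 5th to 95th percentiles, and black marks the median. The members' medians of -0.17 to -1.01 on the left and 0.68 to 1.08 on the right all lay above those of all genes.

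Only 4 members were called lower with CYC065 in all 5 lines on the spike-in scale, 4.88% of the 82, when 69.4% of all tested genes were. RPL7L1 (chromosome 6, 42847354 to 42857663 of GRCh37, plus strand) fell the most. In spike-in scaled FPKM, it went from 186, 179 and 201 in DMSO to 73.3, 70.8 and 55.6 in CYC065 in SH-EP, and from 153, 103 and 124 to 32.8, 27.7 and 30.9 in WT. The ranges in T58A were 96.0 to 165 and 47.7 to 54.8, in S62A 67.0 to 78.5 and 16.7 to 19.4, and in T58A S62A 106 to 139 and 44.9 to 55.6. The treatments overlapped in none of the lines. The mean log2 change was -1.66 ± 0.08 (adjusted p = 2.82e-17), and on FPKM as deposited -0.32 ± 0.04 (adjusted p = 2.38e-08). As a share of RPL7 FPKM, RPL7L1 was at 6.11% to 9.00% in the 15 DMSO libraries and at 2.44% to 4.0% in the 15 CYC065 libraries.

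RPL36AL (chromosome 14, 50085248 to 50087344, minus strand) fell unevenly between lines. In spike-in scaled FPKM, it went from 598, 632 and 684 in DMSO to 312, 267 and 239 in CYC065 in SH-EP, and from 534, 330 and 513 to 291, 298 and 284 in T58A, without overlap in either line. The log2 change was -1.23 ± 0.17 in SH-EP (adjusted p = 3.52e-07), -1.56 ± 0.17 in WT (adjusted p = 4.26e-09) and -0.63 ± 0.17 in T58A (adjusted p = 0.00176), with a mean over lines of -1.03 ± 0.08 (adjusted p = 6.6e-13) that was 0.32 as deposited. As a share of RPL36A FPKM, it went from 52.9% to 59.7% in DMSO down to 24.6% to 27.3% in CYC065 in SH-EP, and from 74.2% to 80.5% down to 50.8% to 57.6% in WT. In T58A S62A, the shares of 50.1% to 75.2% and 52.4% to 55.3% overlapped.

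RPL13A (chromosome 19, 49990767 to 49996314, plus strand), a large subunit protein whose introns hold the 4 snoRNAs SNORD32A, SNORD33, SNORD34 and SNORD35A, has a processed pseudogene, RPL13AP5, whose values were looked at after those of RPL13A were seen. The table lists RPL13AP5 at a mean of 1749 FPKM as deposited and RPL13A at 355 FPKM, and how reads were divided between them is not given in the sources used here. In spike-in scaled FPKM, RPL13A was at 1011, 987 and 1092 with DMSO and 750, 733 and 606 with CYC065 in SH-EP, and at 554, 575 and 482 and then 264, 211 and 256 in T58A S62A. The groups did not overlap. The log2 change was -0.57 ± 0.17 in SH-EP (adjusted p = 0.00412) and -1.14 ± 0.17 for the double mutant (adjusted p = 1.41e-06), with a mean of -1.12 ± 0.08 over the 5 lines (adjusted p = 1.06e-13). On FPKM as deposited the mean was 0.23 ± 0.03 (adjusted p = 5.65e-08), with -0.06 ± 0.06 in T58A S62A (adjusted p = 0.367). RPL13AP5 had a mean of -0.50 ± 0.11 on the spike-in scale (adjusted p = 0.000133), against 0.84 as deposited. RPL13A made up 20.1% to 21.1% of the FPKM of the pair in S62A with DMSO and 14.5% to 15.1% with CYC065, and 20.8% to 23.6% and then 13.7% to 15.3% in T58A, without overlap. Nor did the ranges overlap in the double mutant, at 15.2% to 27.2% and 8.97% to 11.0%. In SH-EP, the ranges of 19.4% to 22.9% and 16.4% to 19.9% overlapped, as did those of 18.7% to 23.8% and 15.1% to 19.1% in WT. The part of read assignment in the values of RPL13A was not tested.

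RPL26L1 (chromosome 5, 172385732 to 172396774, plus strand) had a mean of -0.88 ± 0.10 (adjusted p = 1.66e-09), against 0.46 as deposited, and its share of RPL26 FPKM was 3.59% to 5.52% in DMSO and 2.61% to 4.48% in CYC065, ranges that overlapped.

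The members in fixed roles moved close to the members' middle. Mean log2 changes over the 5 lines on the spike-in scale were -0.47 for RPL5, -0.42 for RPL11, -0.45 for RPLP0 and RPLP1, -0.40 for RPLP2, -0.54 for RPS27A, -0.46 for RPSA, -0.47 for RPS6 and -0.50 for RPS4X. The copies RPL22L1 and RPS27L had -0.42 and -0.54. RPL3, RPL7, RPL10, RPL22, RPL26, RPL36A, RPL39 and RPS27 had -0.56, -0.45, -0.50, -0.45, -0.53, -0.52, -0.35 and -0.35. All 19 of these were called in the mean over lines, as were 79 of the 82 members, when 94.4% of all tested genes were called lower and 1.59% higher. As deposited, each of the 19 had a positive mean, given with the other scalings in the closing section. RPL21 and RPL41 were among those not called, at -0.19 ± 0.21 and 0.10 ± 0.29. RPL41 ranged from 87.7 to 736 FPKM as deposited among the 3 SH-EP libraries with DMSO.

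**Figure D5:**
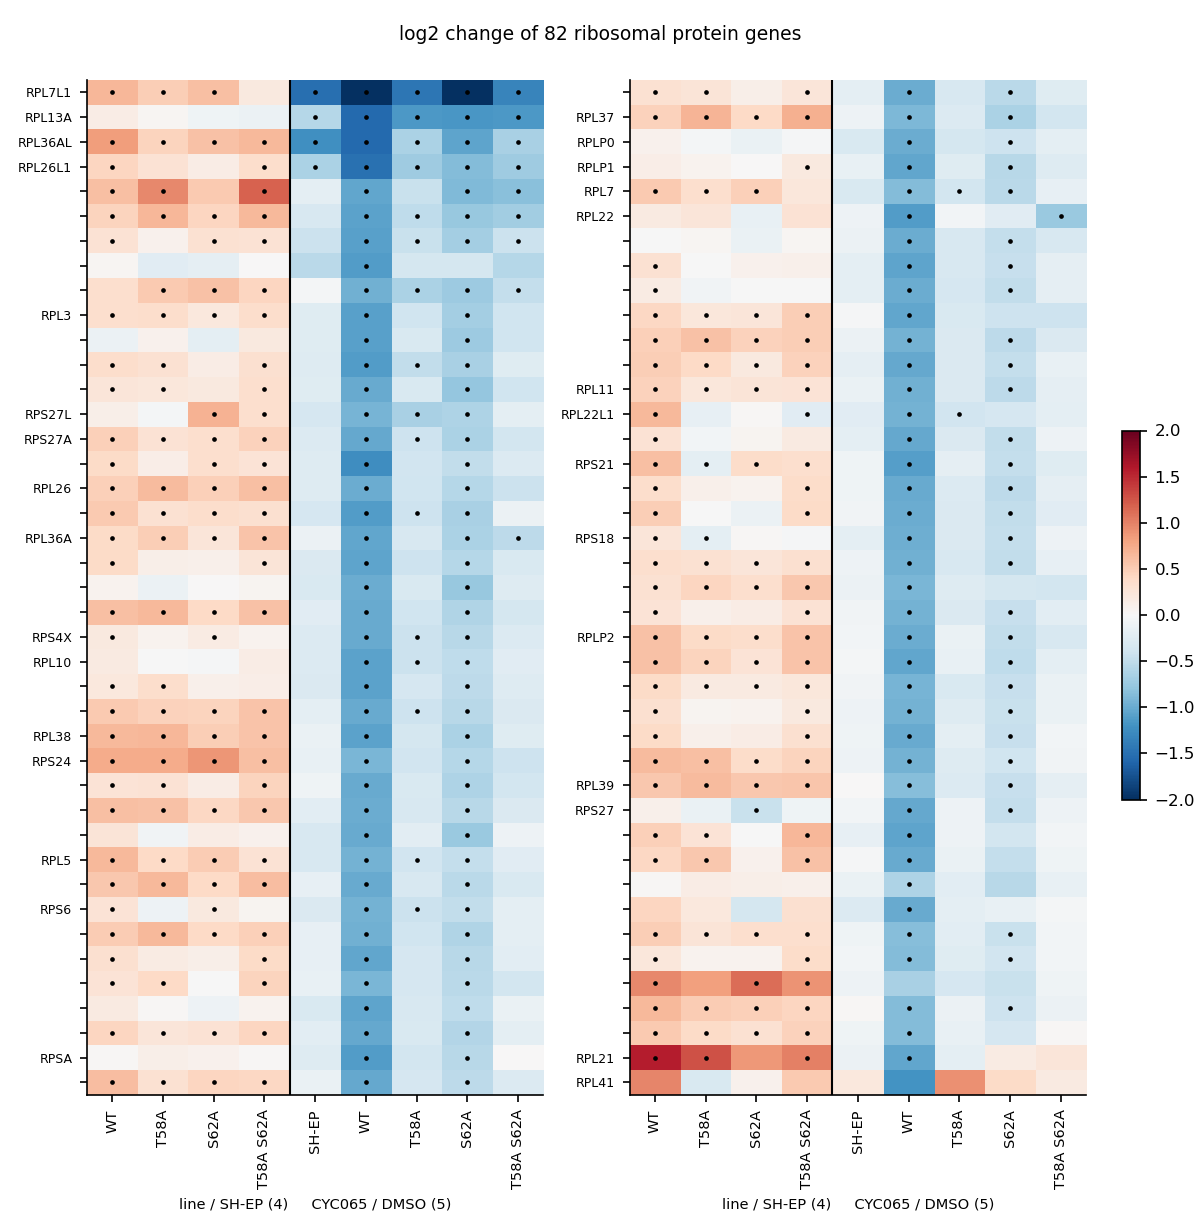
Log2 change (colour) of the 82 tested ribosomal protein genes (y axis, ordered by mean change with CYC065, with members described in the text labelled) of MYCN lines over SH-EP with DMSO, on FPKM as deposited (4 columns), and with CYC065 against DMSO in each line, on spike-in scaled FPKM (5 columns). Dots mark an adjusted p under 0.05. RPL7L1, RPL13A, RPL36AL and RPL26L1 carry dots in all 5 CYC065 columns, where 4 members are called in SH-EP and 80 in WT. Most members rise in the first 4 columns, where none is higher on the spike-in scale.

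The response was then set against features of the genes that the rule did not use. Members with a pyrimidine run of at least 5 bases at the start (52) had a median of the mean CYC065 changes of -0.45 on the spike-in scale, and those with a shorter run (15) one of -0.52, with RPL7L1 and RPL26L1 in the second set and RPL13A and RPL36AL in the first. Members with a snoRNA in an intron (29) and without (53) had medians of -0.45 and -0.46. Across the 82 members, which share libraries and scaling, Spearman's rho between the change and the length of the annotated transcript was -0.38, as a description. The same sets of run length had medians of 0.28 and 0.31 for the mean change of the MYCN lines against SH-EP.

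The third comparison asked whether the response to CYC065 differed between each MYCN line and SH-EP. On the spike-in scale, 54 of the 82 members fell further in WT than in SH-EP (65.9%, against 16.3% of all tested genes), and none fell less, as 1.89% of all tested genes did. In T58A, S62A and T58A S62A, no member passed in either direction, when 0.311%, 1.87% and 0.199% of all tested genes passed toward a larger fall and 2.28%, 3.08% and 5.21% toward a smaller one. At an unadjusted p under 0.05, 1, 2 and 1 members fell further and 1, 0 and 1 fell less. The median interaction of the members was -0.83 in WT, -0.14 in T58A, -0.37 in S62A and -0.04 for the double mutant, beside -0.52, -0.01, -0.29 and 0.08 over all tested genes. The 4 interactions share the SH-EP libraries.

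The count in WT was not stable to the libraries used. It was 0 without library 1 of WT in DMSO, which stands apart in its spike-in factor, and 0 to 5 without any of the 3 libraries of SH-EP in DMSO, library 1 or 2 of SH-EP in CYC065, or library 2 or 3 of WT in CYC065. Without 1 of the others it was as high as 73. A fit of loess curves to the spike-ins gave 0, one of only the groups compared 3, and one without the filter on low levels 4. Shares of all tested genes in these refits are not given here. On FPKM as deposited, 52 members rose less with CYC065 in WT than in SH-EP, 12 in T58A, 2 in S62A and 32 for the double mutant, or 63.4%, 14.6%, 2.44% and 39.0% of the 82, beside 18.1%, 14.0%, 13.7% and 14.8% of all tested genes. In the mean over the 4 lines, 38 members passed in this direction as deposited (46.3%, against 20.3% of all tested genes). RPL13A was the member that passed in that mean on the spike-in scale, where 1.93% of all tested genes passed in its direction and 4.17% in the other, at -0.68 ± 0.19 (adjusted p = 0.031), and at -0.57 ± 0.07 (adjusted p = 1.32e-06) as deposited. Its call on the spike-in scale was lost without any of the 3 SH-EP libraries in DMSO or library 1 or 2 of SH-EP in CYC065 (adjusted p = 0.0571 to 0.109), and with loess (adjusted p = 0.246). In WT its interaction was -0.99 ± 0.24 (adjusted p = 0.0217), and its pseudogene RPL13AP5 had one of -0.98 ± 0.35 (adjusted p = 0.0513).

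Genes of related lists are given for scale. FAU, which makes a ribosomal protein fused to a ubiquitin-like protein and falls outside the symbol rule, had a mean change with CYC065 of -0.46 on the spike-in scale and was called lower in WT and in S62A. Against SH-EP in DMSO, as deposited, FAU was higher in each MYCN line, by 0.60 to 0.87 on the log2 scale, and changed by -1.35 to 0.03 on the spike-in scale. The next list held 17 symbols for other genes with TOP mRNAs, such as elongation factors and PABPC1, with GNB2L1 and RACK1 naming the same gene. Of the symbols, 16 were tested. They were higher than in SH-EP in 12 (WT), 11 (T58A), 11 (S62A) and 10 (double mutant) cases as deposited, when 31.6%, 30.9%, 31.0% and 31.2% of all tested genes were. On the spike-in scale none was higher and 16, 14, 16 and 13 were lower. Of all tested genes, 0.389% to 2.27% were higher on that scale and 88.5%, 77.6%, 95.0% and 69.7% lower. They fell with CYC065 in 7 (SH-EP), 15 (WT), 13 (T58A), 15 (S62A) and 8 (double mutant) cases on the spike-in scale, with medians from -0.40 to -1.07. Of all tested genes, 75.7%, 93.7%, 84.2%, 90.2% and 76.3% were called lower in the same order, with medians from -0.97 to -1.57.

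Nucleolar assembly factors, among them NPM1, NCL and FBL, were the third list. All 15 were higher than in SH-EP in WT and in T58A S62A, and 14 in T58A and in S62A, with medians of 1.01, 0.92, 0.87 and 0.77 as deposited. Of all tested genes, 31.6%, 31.2%, 30.9% and 31.0% were higher in that order. After scaling to spike-ins, those medians were -0.24, 0.09, -0.08 and -1.18, with 6, 3, 4 and 15 lower and 1 higher, in the double mutant. Of all tested genes, 88.5%, 69.7%, 77.6% and 95.0% were lower on that scale, and 2.27% higher in the double mutant. With CYC065 on the spike-in scale, 14 were lower in SH-EP, 15 in WT, 14 in T58A, 15 in S62A and 13 for the double mutant. Genes called lower made up 75.7%, 93.7%, 84.2%, 90.2% and 76.3% of all tested. The list's medians were -1.21, -1.57, -0.95, -1.16 and -0.85, whereas as deposited they were 0.04, 0.11, 0.24, 0.34 and 0.22. Whether the lists differ from the ribosomal proteins was not tested.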

How the data were processed

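Poly(A) RNA of the 30 samples was sequenced with strand-specific libraries after ERCC spike-ins were added by cell number. The authors aligned reads to hg19 with HISAT and deposited FPKM per gene, estimated with Cufflinks and not scaled to spike-ins. The gene annotation behind the deposited FPKM and the handling of multiply mapped reads are not given in the sources used here. Columns were assigned to groups by line and treatment, and library numbers are names only. No column belonged to other samples. Some genes are not reported here by name.

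Genes averaging 1 FPKM or more were tested on log2(FPKM + 0.1) with limma 3.58.1 in R 4.3.3, in 1 fit of 10 groups with a trended prior, and p-values were adjusted by Benjamini-Hochberg over all 11575 genes at a threshold of 0.05. The pseudocount makes changes of low genes look smaller than they are. Contrasts between lines used the deposited FPKM. CYC065 and its interaction with line were tested after 1 factor per library had equalised the median log2 level of 55 of 92 spike-ins, those averaging 1 FPKM or more. The fit was tested on simulated data for WT against SH-EP in DMSO alone. There, 182 of 200 changed genes were recovered and 11 of 11293 unchanged genes were called. Spike-in scaling was checked on values without noise. The contrasts of CYC065 and its interaction with line, and spread between spike-in factors, were not simulated. Alternatives were other scalings, pseudocounts, filters, samples in the fit and leaving out each library.

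Members and lists were chosen with earlier results of these data known. Named members were those in fixed roles, copies and their partners, and, for each comparison, the 3 with the largest mean rise or fall among those called in every line, plus those called against most members in at least 3 lines. RPS21 and members named as the few exceptions to a count were chosen after their values were seen. Promoter sequences came from RefSeq (GRCh38.p14), and gene positions in GRCh37 from a lifted GENCODE annotation.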

Additional observations from a re-analysis of the deposited data

Results flagged for a closer look

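The response to CYC065 differed between WT and SH-EP for 54 of the 82 ribosomal protein genes by the interaction term of the fit on the spike-in scale, each with a larger fall in WT. The count was 0 without library 1 of WT in DMSO. On FPKM as deposited, where most members rose with CYC065, 52 rose less in WT.

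RPL13A differed in the same term averaged over the 4 MYCN lines, at -0.68 ± 0.19 on the log2 scale (limma, adjusted p = 0.031), and its adjusted p was 0.0571 to 0.109 when any of the 3 libraries of SH-EP in DMSO, or library 1 or 2 of SH-EP in CYC065, was left out. With loess curves through the spike-ins, it was -0.58 (adjusted p = 0.246). The table lists the pseudogene RPL13AP5 at 1749 FPKM, above RPL13A itself at 355 FPKM, and its part in this result was not tested.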

How the results depend on the processing

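Read depth is unknown from FPKM, so the reads behind low members cannot be given, and 3 libraries per group limit what can be called. Among alternatives for the changes of named members, direction depended on scaling. Neither another pseudocount nor another filter on low levels reversed any of them. Counts of members below come without the share of all tested genes in the same setting, unless given above. They show only how far a count moved. No paired analysis was possible because the columns of the table number the libraries of a group differently from the sample titles, so no number ties libraries across groups.

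Scaling to spike-ins gave 0 members higher than SH-EP in each of the 4 MYCN lines, as did loess curves through the spike-ins. Against WT, the members called lower were 0 in T58A, 79 in S62A and 1 for the double mutant after spike-in scaling, and 0, 78 and 0 with loess. With CYC065, the members called lower on FPKM as deposited were 1 in every line, and after centring each library on the median of the tested genes 1 in S62A and 0 in the other lines. For T58A the count with CYC065 was 5 with loess and 8 without the filter on low levels. The larger fall in WT than in SH-EP was called for 0 members with loess and 4 without the filter. In T58A, S62A and T58A S62A, the change with CYC065 was called lower than in SH-EP for 12, 2 and 32 members as deposited and for 8, 1 and 26 after centring, where members mostly rose and these rose less. With only the groups compared in the fit, the members lower with CYC065 were 13 in SH-EP, 6 in T58A and 5 in T58A S62A, those with a larger fall than SH-EP 3 in WT and 1 in S62A and those lower than WT in DMSO 5 in T58A, 2 in S62A and 1 for the double mutant.

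Leaving out 1 library at a time gave 6 to 61 members lower with CYC065 in T58A, 34 to 72 in S62A and 5 to 24 for the double mutant. The larger fall in WT than in SH-EP was called for 0 to 73. Against WT, 13 to 26 members were lower in T58A, 8 to 43 in S62A and 7 to 19 for the double mutant. The members' median minus that of all tested genes ranged from -0.168 to -0.0351 in T58A, from -0.199 to -0.0765 in S62A and from -0.0934 to 0.0514 for the double mutant. For the mean over the lines with CYC065, that difference was 0.74, and 0.57 with a pseudocount of 1, 0.37 without the filter and 0.61 with a filter of 5 FPKM. For the mean interaction it was -0.14, and -0.26 with a pseudocount of 1 and -0.24 without the filter, and for S62A against WT it was -0.16, and -0.26 with loess. The cause of these changes was not tested.

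The members' share of summed FPKM without the 20 highest other genes was 16.9% (SH-EP), 19.6% (WT), 18.8% (T58A), 18.8% (S62A) and 19.7% (double mutant) with DMSO and 22.3% (SH-EP), 22.9% (WT), 23.8% (T58A), 24% (S62A) and 23.9% (double mutant) with CYC065. Without the 3 highest members it was 14.1% (SH-EP), 16.6% (WT), 15.8% (T58A), 16.1% (S62A) and 16.8% (double mutant) with DMSO and 17.2% (SH-EP), 17.6% (WT), 19.3% (T58A), 18.9% (S62A) and 18.7% (double mutant) with CYC065. Without MIR663A, it was 20.1% (SH-EP), 20.9% (WT), 21.9% (T58A), 22% (S62A) and 22% (double mutant) with CYC065. Over the tested genes alone it was 15.6% in SH-EP with DMSO.

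The mean log2 change of the MYCN lines against SH-EP turned negative on the spike-in scale for 22 named members: RPL10 -1.18, RPL11 -0.95, RPL22 -1.11, RPL22L1 -1.18, RPL26 -0.70, RPL26L1 -0.94, RPL3 -0.93, RPL36A -0.82, RPL36AL -0.62, RPL38 -0.66, RPL39 -0.68, RPL5 -0.79, RPL7 -0.86, RPL7L1 -0.76, RPLP1 -1.15, RPLP2 -0.78, RPS24 -0.51, RPS27A -0.86, RPS27L -0.97, RPS4X -1.13, RPS6 -1.15 and RPSA -1.19. With loess it was RPL10 -1.33, RPL11 -1.10, RPL22 -1.26, RPL22L1 -1.33, RPL26 -0.86, RPL26L1 -1.09, RPL3 -1.09, RPL36A -0.98, RPL36AL -0.77, RPL38 -0.82, RPL39 -0.84, RPL5 -0.94, RPL7 -1.02, RPL7L1 -0.90, RPLP1 -1.31, RPLP2 -0.93, RPS24 -0.66, RPS27A -1.01, RPS27L -1.12, RPS4X -1.28, RPS6 -1.31 and RPSA -1.34. Near 0, RPLP0 ranged from -0.0503 to 0.0005, its sign turning without library 2 of S62A in DMSO, and RPSA from -0.0029 to 0.1034, its sign turning without library 1 of SH-EP in DMSO. The mean change with CYC065 turned positive on FPKM as deposited for 22: RPL10 0.84, RPL11 0.92, RPL13A 0.23, RPL22 0.90, RPL22L1 0.92, RPL26 0.81, RPL26L1 0.46, RPL3 0.78, RPL36A 0.82, RPL36AL 0.32, RPL39 0.99, RPL5 0.87, RPL7 0.89, RPLP0 0.89, RPLP1 0.89, RPLP2 0.95, RPS27 0.99, RPS27A 0.80, RPS27L 0.80, RPS4X 0.84, RPS6 0.87 and RPSA 0.88. Centred on the median, it was RPL10 1.00, RPL11 1.09, RPL13A 0.39, RPL22 1.06, RPL22L1 1.09, RPL26 0.98, RPL26L1 0.62, RPL3 0.95, RPL36A 0.98, RPL36AL 0.48, RPL39 1.15, RPL5 1.04, RPL7 1.06, RPLP0 1.06, RPLP1 1.06, RPLP2 1.11, RPS27 1.15, RPS27A 0.97, RPS27L 0.96, RPS4X 1.00, RPS6 1.04 and RPSA 1.05. RPL7L1 fell with CYC065 under each of these scalings.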
